A study of Homo sapiens with 12 samples.

Results

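The genes described here are 40 genes of the extracellular matrix and basement membrane, chosen as a list by their function, out of 20037 protein-coding genes of the nuclear chromosomes. The list and its role groups were chosen with earlier results of these data known. They were followed in a ChIP-seq study, in which chromatin is pulled down with an antibody, here against Notch3, and its DNA sequenced. The starting cells were neural crest cells derived from the established human embryonic stem cell line H9. The cells had received a lentivirus coding for the intracellular domain of Notch3 with GFP (N3ICD) or for GFP alone (GFP), and both were collected 6 days after transduction and treated with the same Notch3 antibody. Formaldehyde was used at 1% for all libraries. Each group had 3 ChIP libraries, A, B and C, from a series with 3 independent differentiations. Where 3 values are given for a group, they stand in the order A, B, C. The labels call the N3ICD cells mural and the GFP cells neural crest. The promoter of the lentivirus was not given in the sources used here, and the cell labels could not be checked against marker genes because no expression was measured. The 6 matching input libraries were not analysed here.

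The extracellular matrix is the protein and proteoglycan network that cells secrete around themselves. Fibrillar collagens, fibronectin and elastic fibres give tissue its strength and recoil, whereas basement membranes are thin sheets built from laminin and collagen IV networks that are joined by nidogens and the proteoglycan perlecan. In brain vessels, pericytes and smooth muscle lie embedded in such a sheet and hold on to it through integrins. Notch3 is a receptor of these mural cells, and its released intracellular domain acts in the nucleus with the DNA-binding protein RBPJ.

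A peak was given to the protein-coding gene whose nearer end, by span on hg38, lay closest to the peak's summit, up to 100 kb away. The 6 libraries held 12583 peaks, of which 7852 were given to a gene and 26 to the matrix genes. In all, 18 of the 40 genes had a peak in any library, 17 in an N3ICD library and 2 in a GFP library. Of all protein-coding genes, 22.4% had a peak in at least 1 N3ICD library. Peaks in GFP libraries alone were found at 4.9% of all genes and peaks in both groups at 3.12%. Each was 2.5% of the matrix genes. The 22 genes given no peak in any library were COL3A1, COL5A1, COL5A2, COL6A2, COL12A1, COL15A1, COL18A1, FN1, LAMA4, LAMA5, LAMB1, LAMB2, ELN, FBN1, FBLN1, FBLN2, DCN, LUM, POSTN, SPARC, THBS1 and ITGA5. Among them are fibronectin (FN1), elastin (ELN), fibrillin-1 (FBN1), the collagen III chain (COL3A1) and periostin (POSTN). Peaks did lie inside COL5A2 and COL18A1, but were given to no gene and to another gene, respectively. Of all protein-coding genes, 72.7% had no peak in any library, against 55% of the matrix genes.

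The start sites of 4 of the genes lay beside or under an N3ICD peak that reached into the promoter window in the RefSeq table (build GRCh38.p14; 250 bases before to 50 after the start site; 32 of the 40 genes had an entry). Their windows are shown because they are the sequences of matrix promoters that these peaks cover. They are written 5′ to 3′ on the strand of the gene, and capitals mark the bases inside a called N3ICD peak. The HSPG2 window (chr1:21937261-21937560, minus strand) was covered in N3ICD B over 83 of its bases. The N3ICD C peak covered only some of those 83. The NID1 window (chr1:236065041-236065340, minus strand) was covered in N3ICD C over 159 bases. The NID2 window (chr14:52069010-52069309, minus strand) was covered in N3ICD B and the ITGB1 window (chr10:32958181-32958480, minus strand) in N3ICD C, both over all 300 bases.
HSPG2: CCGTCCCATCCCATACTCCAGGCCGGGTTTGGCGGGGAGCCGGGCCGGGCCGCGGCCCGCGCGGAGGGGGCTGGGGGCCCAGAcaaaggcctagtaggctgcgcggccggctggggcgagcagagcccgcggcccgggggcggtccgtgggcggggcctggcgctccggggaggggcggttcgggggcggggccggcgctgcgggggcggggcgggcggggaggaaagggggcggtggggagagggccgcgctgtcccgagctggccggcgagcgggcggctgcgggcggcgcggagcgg
NID1: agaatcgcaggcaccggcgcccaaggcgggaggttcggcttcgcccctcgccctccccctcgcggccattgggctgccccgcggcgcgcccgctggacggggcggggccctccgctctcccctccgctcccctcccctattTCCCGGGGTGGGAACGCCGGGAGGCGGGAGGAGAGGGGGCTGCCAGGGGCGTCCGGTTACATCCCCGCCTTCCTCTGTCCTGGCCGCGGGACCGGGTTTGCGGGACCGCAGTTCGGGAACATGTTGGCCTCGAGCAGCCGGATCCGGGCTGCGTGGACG
NID2: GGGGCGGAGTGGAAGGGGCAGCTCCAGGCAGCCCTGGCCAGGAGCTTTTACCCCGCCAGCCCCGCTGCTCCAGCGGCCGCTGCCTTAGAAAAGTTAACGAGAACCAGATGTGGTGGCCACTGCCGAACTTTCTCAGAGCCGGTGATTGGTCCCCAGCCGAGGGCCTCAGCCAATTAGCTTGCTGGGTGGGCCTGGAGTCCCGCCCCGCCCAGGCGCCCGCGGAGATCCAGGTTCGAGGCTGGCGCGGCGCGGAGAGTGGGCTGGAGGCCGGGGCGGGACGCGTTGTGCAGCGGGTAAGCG
ITGB1: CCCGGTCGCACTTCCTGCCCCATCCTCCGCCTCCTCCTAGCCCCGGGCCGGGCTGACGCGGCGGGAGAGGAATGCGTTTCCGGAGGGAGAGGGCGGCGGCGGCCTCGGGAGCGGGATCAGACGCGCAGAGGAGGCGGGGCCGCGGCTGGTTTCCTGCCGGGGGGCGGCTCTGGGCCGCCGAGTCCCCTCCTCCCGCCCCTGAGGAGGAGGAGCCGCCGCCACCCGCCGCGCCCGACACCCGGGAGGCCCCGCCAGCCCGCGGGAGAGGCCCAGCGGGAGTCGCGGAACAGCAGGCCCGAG

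These 4 windows are rich in G and C, at 83.3% for HSPG2, 74.7% for NID1, 69% for NID2 and 78.3% for ITGB1. The median was 71.8% over the 32 matrix gene windows and 62.3% over 22199 windows of protein-coding genes. The matrix genes had 1 window each, whereas the 22199 came from 15843 genes, so some genes count more than once among all windows. The core letters bound by RBPJ, TGGGAA on either strand, were found in 6 of the 32 matrix windows (18.8%) and in 22.7% of all windows. The longer form GTGGGAA, which contains the core, was found in 3 of 32 (9.38%) and in 6.01% of all windows. Those 3 were NID1, FBLN5 and TNC, and no N3ICD peak reached into the windows of FBLN5 and TNC. In NID1 the longer form began 102 bases before the start site, inside the printed capitals. Neither form was found in the windows of HSPG2, NID2 and ITGB1, which says only that these letters are not in these windows.

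The first comparison asked whether more matrix genes had a Notch3 peak in cells with N3ICD. No matrix gene had a peak in GFP A, 1 had one in GFP B (FBN2) and 1 in GFP C (NID2). With N3ICD, 4 had a peak in A, 6 in B and 9 in C. Every N3ICD library therefore stood above every GFP library. The means were 6.33 ± 2.52 genes in the N3ICD libraries and 0.667 ± 0.577 in the GFP libraries (SD, n = 3 each). A two-sided exact permutation test gave p = 0.1, which is the floor for 3 libraries against 3. With the same number of peaks taken from each library, the 1219 most significant, the difference was 2.67 in place of 5.67 genes. Among peaks with a −log10 q of at least 1.3, which is a q of about 0.05, it was 0.667 genes (exact permutation p = 1).

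**Figure D1:**
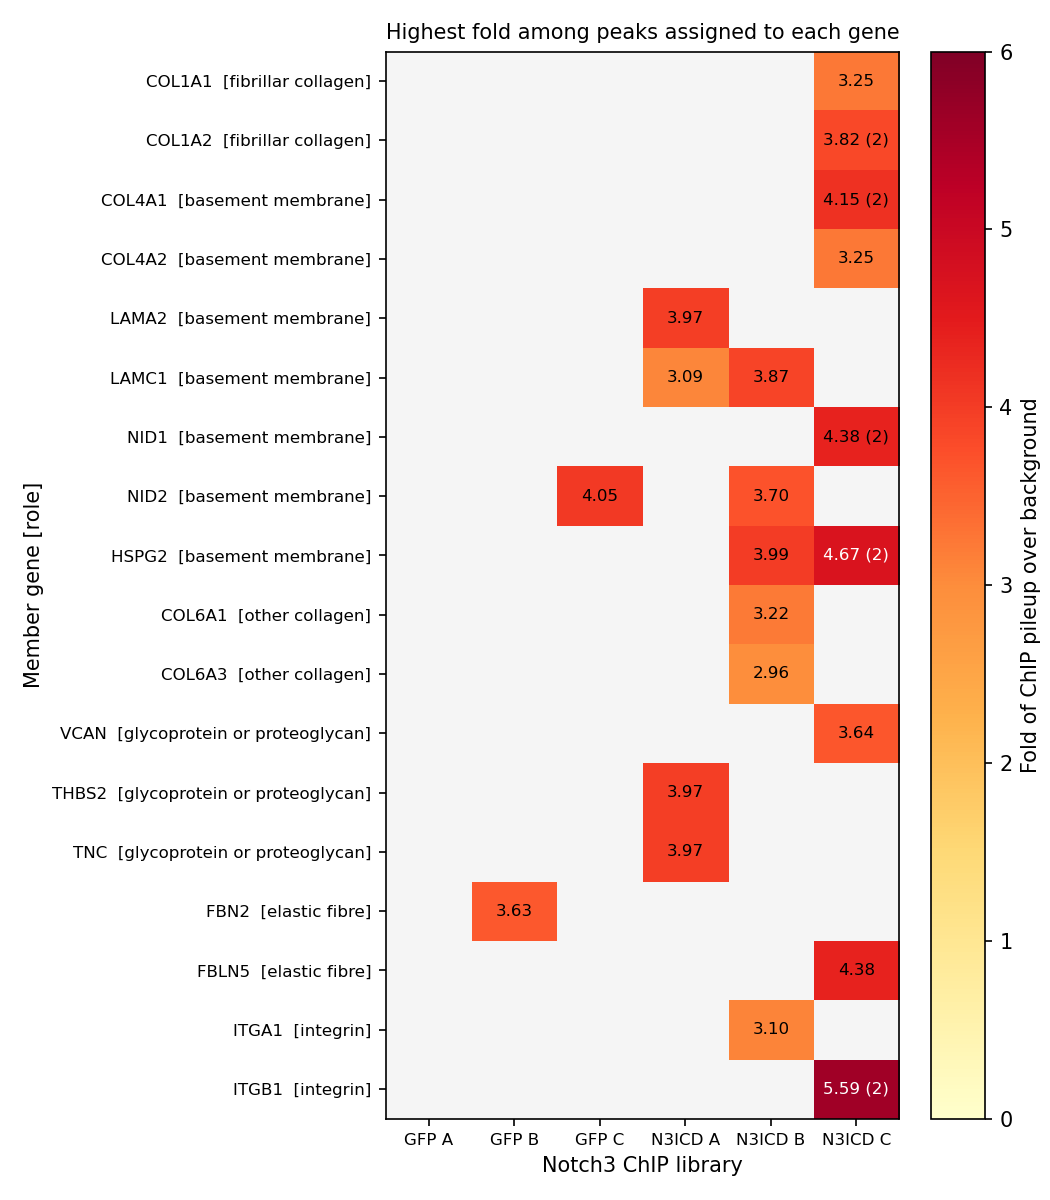
Highest fold of ChIP pileup over background among the peaks given to each of the 18 matrix genes with a peak (rows, with their role) in each Notch3 ChIP library (columns). Empty tiles have no peak, and numbers in parentheses give the peaks where a tile has more than 1. HSPG2 and LAMC1 are filled in 2 N3ICD libraries and in no GFP library.

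All protein-coding genes differed between the groups in the same direction. The share of matrix genes with a peak was 0%, 2.5% and 2.5% in the GFP libraries, where 2.42%, 3.37% and 3.26% of all protein-coding genes had one. In the N3ICD libraries it was 10%, 15% and 22.5%, where all genes had 6.09%, 9.11% and 11.4%. The matrix genes were longer than most and stood farther from other genes, so that more sequence was assigned to them. Their median length was 84.3 kb, against 24.1 kb for all genes. The stretch assigned to a gene, which is nearer to its ends than to those of other genes and within 100 kb, was 163 kb on average, against 89.7 kb for all genes, a ratio of 1.82. Its part in the shares above was not tested. In total this stretch made up 0.362% of that of all genes, and the matrix genes took 0.303%, 0.300% and 0.546% of the assigned peaks of the N3ICD libraries. These shares were below that of their stretch in A and B and above it in C, which was not tested. Of the assigned peaks of the GFP libraries they took 0%, 0.140% and 0.135%.

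Counted as peaks, the matrix genes had 0, 1 and 1 in the GFP libraries and 4, 6 and 14 in the N3ICD libraries. Mean peak numbers were 0.667 ± 0.577 for GFP and 8 ± 5.29 for N3ICD (SD, n = 3 each; two-sided exact permutation p = 0.1). N3ICD C, which had the most peaks of any library, supplied 14 of the 24 N3ICD peaks, and without it the difference was 4.33 in place of 7.33 peaks. It was 2.67 peaks with equal numbers of peaks per library.

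Peaks close to a gene end, where promoters lie, were compared with the same limit of 1 kb for every gene. A gene with a close neighbour can still lose part of that 1 kb, since each peak went to 1 gene. Its part in the shares below was not tested. No GFP library had a matrix peak within 1 kb of an end. The N3ICD libraries had 2, 3 and 4 such genes, or 5%, 7.5% and 10% of the 40. Of all protein-coding genes, 1.15%, 3.07% and 4.36% had such a peak in the N3ICD libraries, and 0.0599%, 0.0898% and 0.125% in the GFP libraries. Over the 3 N3ICD libraries together the count was 8 of 40 matrix genes (20%), against 7.8% of all genes. Over the 3 GFP libraries it was 0 of 40, against 0.27% of all genes. HSPG2 alone of the 40 (2.5%) had one in at least 2 N3ICD libraries, against 0.739% of all genes. The 8 were COL6A1, LAMC1, NID1, NID2, HSPG2, VCAN, TNC and ITGB1. The means per library were 3 ± 1 peaks for N3ICD and 0 for GFP (SD, n = 3 each; two-sided exact permutation p = 0.1). The difference of 3 peaks became 1.33 with equal numbers of peaks, and no such peak was left at a −log10 q of at least 1.3. These shares carry no test of the list. Of the 9 N3ICD peaks this close, 8 belonged to genes with a start site in the RefSeq table, and all 8 lay at the start-site end. The same count was not made for all genes, so it is not known whether the matrix genes differ in this.

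**Figure D2:**
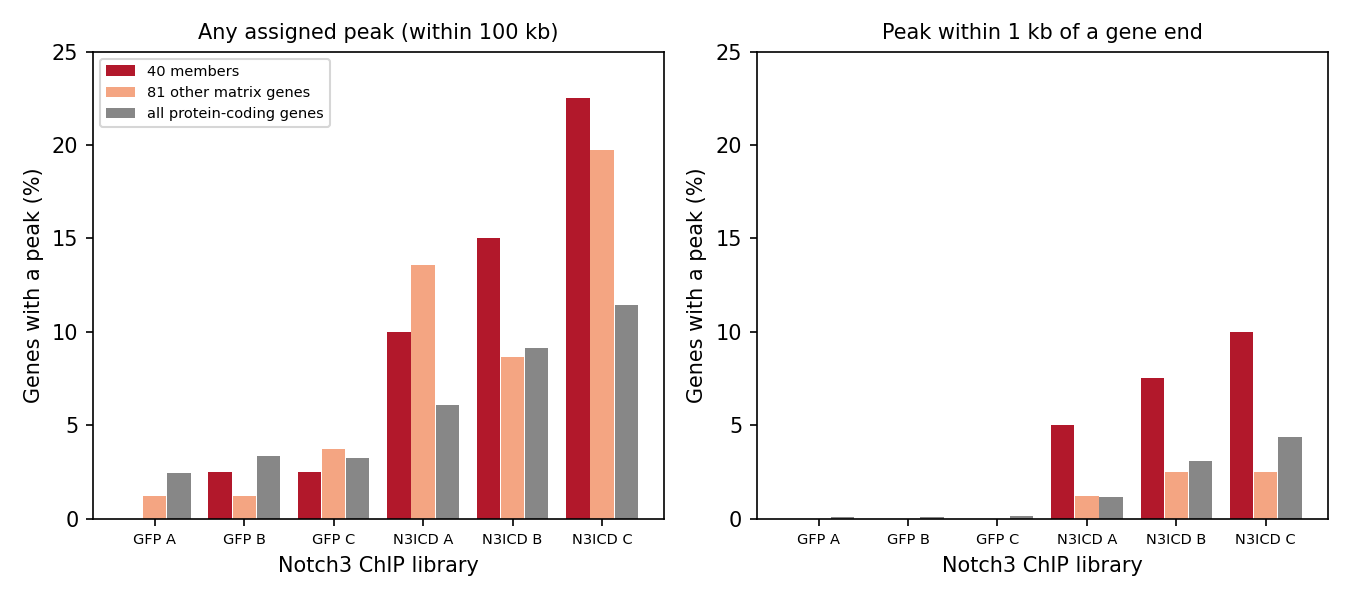
Percent of genes with a peak in each Notch3 ChIP library, for the 40 matrix genes, 81 other matrix genes and all protein-coding genes, for any peak within 100 kb (left) and for a peak within 1 kb of a gene end (right). In N3ICD C 22.5% of the 40 genes had any peak, against 11.4% of all genes, and 10% against 4.36% had one within 1 kb.

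Few genes had a peak in more than 1 N3ICD library, among the matrix genes as among all genes. Of the 17 genes with an N3ICD peak, 15 had it in 1 library and 2, HSPG2 and LAMC1, in 2 libraries. None had a peak in all 3 N3ICD libraries, where 0.349% of all genes had one in all 3 and in no GFP library. Peaks in 2 or more N3ICD libraries with none in GFP were thus seen at 5% of the matrix genes, against 3.12% of all genes. Peaks in 1 or more N3ICD libraries with none in GFP were seen at 16 matrix genes (40%), against 19.3% of all genes. Of these 16 genes 2 (12.5%) recurred in a second N3ICD library, and of the 3868 such genes in all, 626 (16.2%) did. The mirror rule, at least 1 GFP and no N3ICD library, was met by FBN2 (2.5%), against 4.9% of all genes. At least 2 GFP libraries and no N3ICD library had a peak at no matrix gene, against 0.444% of all genes. The 26 peaks formed 25 separate regions, since 1 pair overlapped between libraries.

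Basement membrane genes held the overlapping pair and 7 of their 13 members had an N3ICD peak, 2, 3 and 4 of them in A, B and C. Of all genes, 22.4% had a peak in 1 or more N3ICD libraries, and 6.09%, 9.11% and 11.4% in each. The GFP libraries had 0, 0 and 1 basement membrane gene. HSPG2, which encodes perlecan, had the repeated site just upstream of its start. N3ICD B had a peak there with a fold of 3.99 (chr1:21937478-21937715) and N3ICD C one with a fold of 4.15 (chr1:21937546-21937794). Neither N3ICD A nor any GFP library had a peak there. The summits lay 313 and 336 bases before the start site, 23 bases apart, and the peaks shared 170 bases. They stood on 11 and 7 stacked fragments, with a −log10 q of 1.24 and 0.828, so neither reached 1.3 by itself. HSPG2 had another peak in N3ICD C, 27859 bases downstream of the start inside the gene (chr1:21909305-21909560), with a fold of 4.67 and a −log10 q of 1.39. That summit lay 837 bases from an end of the pseudogene RPL21P29.

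LAMC1, the gene of the laminin γ1 chain found in most laminins, had peaks in 2 N3ICD libraries at different places. In N3ICD A the summit lay 520 bases before the start site (chr1:183022757-183023090) with a fold of 3.09. In N3ICD B it lay 29180 bases inside the gene (chr1:183052507-183052807) with a fold of 3.87. The first of these had a −log10 q of 0.104, the lowest among all 26 matrix peaks. LAMA2, the laminin α2 chain gene, had 1 peak in N3ICD A, 89791 bases upstream of its start (chr6:128793225-128793720), with a fold of 3.97. Its place is near the 100 kb limit. The N3ICD B peak inside LAMA2, 162684 bases from the start site, fell outside the limit and counted for no gene.

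The nidogen genes encode the linkers between laminin and collagen IV, and both had an N3ICD peak across the start site. NID1 had its peak in N3ICD C (chr1:236064977-236065199), with the summit 54 bases after the start, a fold of 4.38 on 8 fragments and a −log10 q of 1.22. NID2 had its peak in N3ICD B (chr14:52068928-52069438), with the summit 52 bases after the start, a fold of 3.70 on 9 fragments and a −log10 q of 0.826. Each was found in 1 library, and no GFP library had a peak at either start site. Both genes also had a peak far away. NID1 had a peak in N3ICD C 45082 bases beyond the far end of the gene (chr1:235930666-235930917; fold 3.64). NID2 had the only basement membrane peak of a GFP library, in GFP C, 68244 bases upstream (chr14:52137225-52137476), with a fold of 4.05 on 12 fragments.

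COL4A1 and COL4A2 encode the main chains of collagen IV and start 127 bases apart in opposite directions, so they share 1 promoter region. No library had a peak within 1 kb of it. N3ICD C alone had 3 peaks farther off. COL4A1 had one 56180 bases inside the gene (chr13:110250681-110250999; fold 4.15) and one 10203 bases beyond its far end (chr13:110138653-110138939; fold 3.64). COL4A2 had one inside the gene, 87481 bases from its far end (chr13:110425565-110425815; fold 3.25). Each stood on 6 or 7 fragments.

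**Figure D3:**
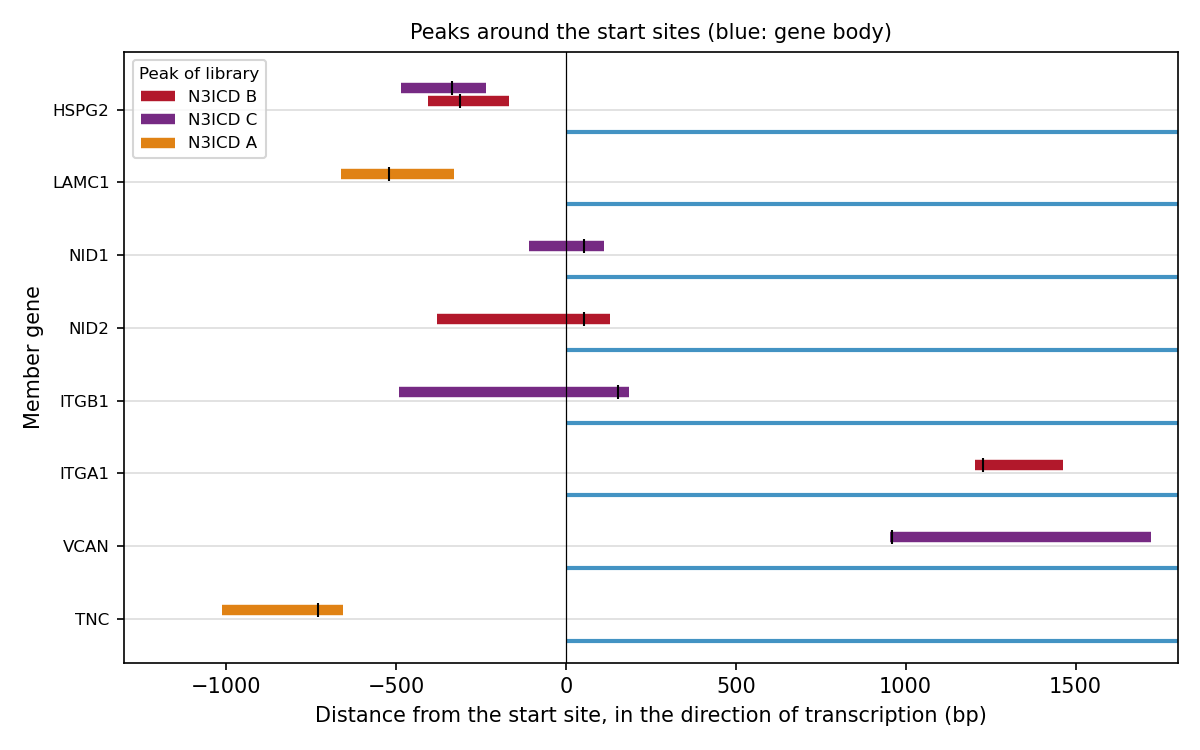
Peaks around the start sites of 8 matrix genes, drawn as bars from their first to their last base in the direction of transcription, coloured by library, with the summit as a black tick and the gene body in blue. The HSPG2 peaks of N3ICD B and C overlap, with summits 313 and 336 bases before the start, and no GFP peak falls in these windows.

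Integrins, the receptors that hold cells to the matrix, carried the strongest of the peaks. ITGB1 encodes the β1 subunit shared by the collagen, laminin and fibronectin receptors. In N3ICD C a peak lay over its start site (chr10:32958043-32958720), with a fold of 4.15 and the summit 152 bases after the start. Another in N3ICD C lay 47551 bases upstream (chr10:33005618-33006193), with a fold of 5.59 on 10 fragments and a −log10 q of 2.90. This was the highest fold of the 26 peaks, rank 136 of the 3397 peaks of N3ICD C, and no other library had a peak at ITGB1. ITGA1, the collagen-binding α1 subunit, had a peak in N3ICD B 1227 bases after its start (chr5:52789119-52789379) with a fold of 3.10. It is equally close to PELO, a gene with the same end, so its assignment is uncertain.

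The collagens of fibrils and of microfibrils were given peaks of single N3ICD libraries and none of GFP libraries. Of the 5 fibrillar collagen genes 2 had one, both in N3ICD C, where 11.4% of all genes had a peak. COL1A1 had a peak 9027 bases from its nearer end (chr17:50210597-50210822; fold 3.25), and COL1A2 had peaks 19644 and 83073 bases from its nearer end (folds 3.82 and 3.64). None lay within 1 kb of the gene. Of the other collagen genes, COL6A1 and COL6A3, which encode chains of the beaded collagen VI, had a peak in N3ICD B. That of COL6A1 was 143 bases inside an end of the gene (chr21:45981607-45981928), with a fold of 3.22. That of COL6A3 lay 15895 bases upstream (chr2:237430009-237430288), with a fold of 2.96, the lowest of the 26 peaks. COL6A2 and COL12A1 had none.

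Of the 9 glycoprotein and proteoglycan genes 3 had an N3ICD peak, where 22.4% of all genes had one. TNC, the gene of tenascin-C, a matrix protein of embryonic and healing tissue, had one in N3ICD A 729 bases upstream of its start (chr9:115118814-115119169; fold 3.97). THBS2, a thrombospondin gene, had one in N3ICD A 2648 bases beyond its far end (chr6:169213080-169213424; fold 3.97), and that summit was 75 bases from an end of the long non-coding RNA gene THBS2-AS1. VCAN, the gene of the proteoglycan versican, had one in N3ICD C 960 bases after its start (chr5:83472699-83473466; fold 3.64).

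Of the 6 elastic fibre genes, FBLN5 alone had a peak in an N3ICD library, where 22.4% of all genes had one in at least 1. FBLN5 encodes fibulin-5, which is needed to assemble elastic fibres. Its peak in N3ICD C lay 5597 bases inside the gene from the start (chr14:91941956-91942184), with a fold of 4.38 on 8 fragments. FBN2, the gene of fibrillin-2, had the other GFP peak, in GFP B, 91207 bases inside the gene (chr5:128446855-128447104; fold 3.63). No elastic fibre gene had a peak in both groups, against 3.12% of all genes.

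The matrix peaks stood on 6 to 12 stacked fragments, with folds of 2.96 to 5.59. Their median fold was 3.97, 3.46 and 3.99 in the N3ICD libraries, against 3.53, 3.59 and 3.64 for all peaks, so it was above the library's median in A and C and below it in B. Of the 24 N3ICD matrix peaks, 6 had a fold below the median of their library. Peaks tied at the median, such as those of N3ICD C with a fold of 3.64, are not among the 6. The same count was not made for all peaks, so it is not known whether the matrix peaks differ in this. The median matrix peak stood at percentile 75.5, 38.3 and 61.9 of its library by fold. Of the 26 matrix peaks, 2 reached a −log10 q of 1.3, the distant ones of ITGB1 and HSPG2 in N3ICD C. Of all peaks in the N3ICD libraries, 6.56%, 14.1% and 20.0% did. No matrix peak reached 5. Folds repeat because pileups are whole numbers over a mostly flat background. In N3ICD C 4 matrix peaks had a fold of 3.64, as did 791 of its 3397 peaks. Read totals are unknown from the sources used here, and the background pileup implied by the deposited values ran from 0.926 in N3ICD C to 1.90 in GFP C.

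**Figure D4:**
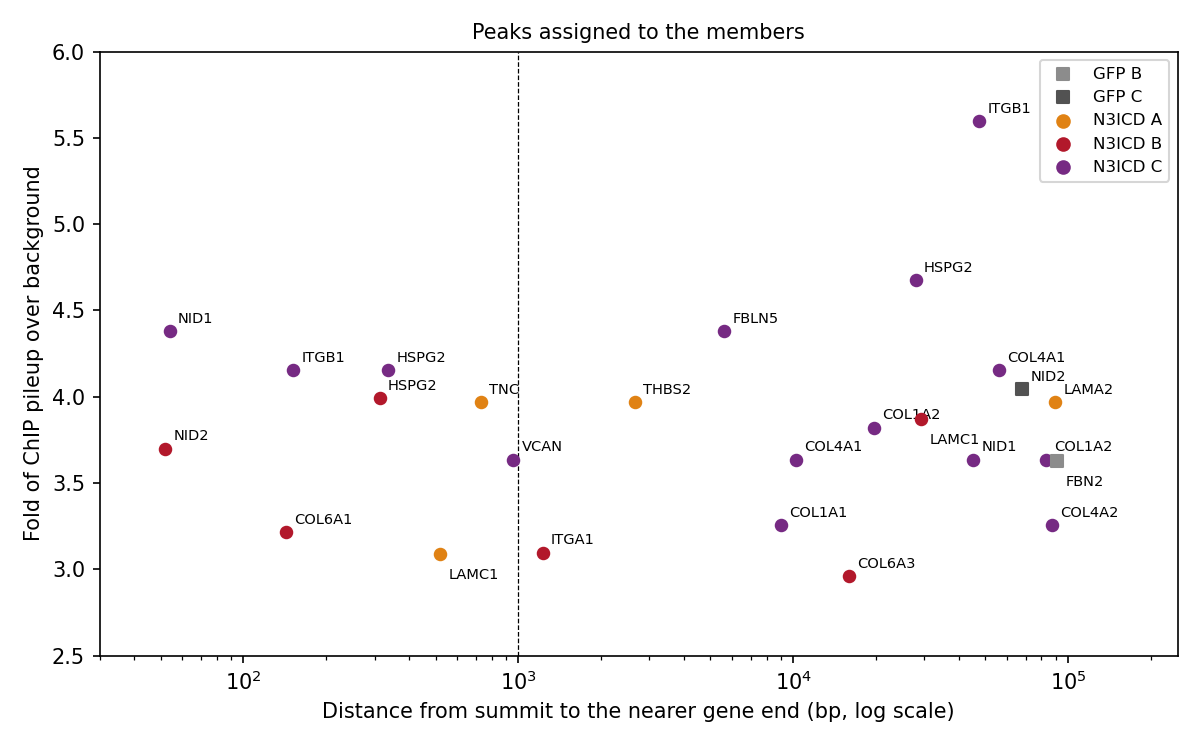
Fold of ChIP pileup over background at each of the 26 peaks given to matrix genes, against the distance from its summit to the nearer end of the gene (log scale). Colours mark the libraries, squares the GFP peaks and the dashed line 1 kb. The 9 peaks within 1 kb are all from N3ICD libraries, and the 2 GFP peaks lie 68244 and 91207 bases away.

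Many of the distant peaks were nearer to a gene of another kind. Of the 24 N3ICD matrix peaks, 11 had a summit closer to an end of another gene than to the matrix gene once non-coding genes and pseudogenes were counted, and this held for 1 of the 9 peaks within 1 kb, that of TNC. Peaks inside a gene whose nearest end belonged to another gene were counted separately. COL18A1 had one in N3ICD B that went to SLC19A1, and ITGA1 another in N3ICD B that went to PELO. COL5A2, a fibrillar collagen gene, had a peak in GFP A and one in N3ICD C, 2171 bases apart and 117845 and 115674 bases from its nearer end, just beyond the limit.

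A longer list of 81 other matrix genes, of enzymes, proteases, integrins and further collagens and laminins, was counted in the same way. It had 11, 7 and 16 genes with a peak in the N3ICD libraries (13.6%, 8.64% and 19.8%) and 1, 1 and 3 in the GFP libraries. Within 1 kb of an end the counts were 1, 2 and 2 with N3ICD and 0 with GFP. The N3ICD counts were 1.23%, 2.47% and 2.47% of the list, against 1.15%, 3.07% and 4.36% of all genes, so that this list was not above all genes near gene ends in B and C and was close to them in A. PLOD2 and TIMP3 were among the genes of this list with a peak in 2 N3ICD libraries. PLOD2, a lysyl hydroxylase of collagen, also had one in GFP C. TIMP3, an inhibitor of matrix proteases, reached folds of 3.53 in N3ICD A and 4.15 in N3ICD C. ITGB5 (fold 5.03 in B) and MMP2 (fold 4.83 in A) had a peak in 1 N3ICD library. COL4A5, with peaks in GFP A and C and N3ICD A, and LOXL2, with a peak in GFP B, were found in more GFP than N3ICD libraries.

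For scale, 10 Notch target genes had a peak in 7, 4 and 8 cases in the N3ICD libraries and in none in the GFP libraries, and 8 of the 10 were found in 2 or more N3ICD libraries. HEY1, HEY2 and NOTCH3 had a peak in all 3 N3ICD libraries, which no matrix gene had, and HEYL and HES1 in 2. The highest fold was 17.1, at a peak of N3ICD C given to HEY1 from 59843 bases away. The highest HEY1 peaks of N3ICD A and B lay 16294 and 59860 bases away. This list was chosen with earlier results of these data known and has no test here.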

How the data were processed

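Notch3 ChIP peaks of 6 libraries (3 GFP, 3 N3ICD) were used. Per the submitters' processing notes, the authors used MACS3 3.0.0a7, Bowtie2 2.2.1, deepTools 3.5.1, SAMtools 1.11 and bedtools 2.30.0 on hg38. Options and the control for peak calling are not given in the sources used here. Peaks were called in each library separately, so the library is the replicate. The fold is the authors' deposited ratio of ChIP pileup to background at the summit. The −log10 p and −log10 q values (p-values and q-values) are those deposited by the authors, and no list goes below a −log10 p of 3.3. The pileup is the deposited signal at the summit. Background pileup was computed as (pileup + 1) / fold − 1, taking the lowest value that recurred at least 5 times. Enzymatic digestion, per the labels' protocols, cuts open chromatin more readily, which can shape where weak peaks are called.

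Gene spans came from RefSeq (GRCh38.p14), and strand and start sites from its promoter table. A summit equally near to the ends of 2 genes went to the first by name (34 of all peaks). Group means were compared by exact permutation over libraries. Exons, introns and UTRs were not used here. On simulated data, 200 of 200 planted summits went to the right gene. The members, roles and lists were chosen with earlier results of these data known. All members are named, and of the other lists up to 5 genes found in the most N3ICD libraries and up to 3 found in more GFP libraries; 1 gene that this rule names is not reported here. Alternatives covered the distance, the peak threshold, the number of peaks, the assignment, the summit, left-out libraries and the replicate letter. Scripts ran under Python 3.11.15 (pandas 2.3.3, numpy 2.4.6, matplotlib 3.10.9).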

Additional observations from a re-analysis of the deposited data

How the results depend on the processing

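No result changed direction. The settings at a −log10 p of at least 4 were chosen after seeing the data. With only peaks at a −log10 q of 5 or more, the differences in matrix genes with a peak, in matrix peaks and in peaks within 1 kb of an end were all 0, since no matrix peak passes, and the last was also 0 at 1.3. Genes in at least 2 N3ICD and no GFP libraries numbered 2. They numbered 3, with LAMA2 added, when a peak inside a gene was given to that gene first. Counting every gene within 50 kb of a summit also gave 3, with COL6A2 added. The count was 1 with a limit of 10 kb, with equal numbers of peaks and at a −log10 p of at least 4. At a −log10 q of 1.3 or 5 it was 0. Stricter settings leave fewer peaks by their construction. With single libraries left out, that count ranged from 0 to 2, being 1 without N3ICD A, 0 without N3ICD B and 1 without N3ICD C. The difference in matrix genes ranged from 4.33 to 6.83, in matrix peaks from 4.33 to 9.33 and in peaks within 1 kb from 2.5 to 3.5 (exact permutation p of 0.1 to 0.2). With the replicate letter as a block the differences were 5.67 genes, 7.33 peaks and 3 peaks within 1 kb, each with an exact permutation p of 0.25, the smallest that 3 pairs allow. Correlations over 5475 genes between same-letter libraries were -0.00935, 0.00269 and -0.00500 for A, B and C. Between different letters they ran from -0.00659 to 0.0124. The GFP libraries had peaks at few genes, so these values cannot decide whether the letters are pairs. The main tests left the libraries unpaired. These results are limited, since a peak rests on few fragments and a gene without a called peak may still be bound. Read totals are unknown, so the part of depth in this was not tested.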
